A study of Homo sapiens with 6 samples.

Results

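Cholesterol synthesis, uptake and transport was followed through 29 genes in Cal33 cells that overexpress carboxylesterase 2. The genes were taken by name from the deposited expression table, and all 29 of them had a row among its 14136 gene entries. Of these, 28 reached the level needed for testing (at least 1 TPM in at least 3 libraries), as did 12210 genes in all. There are 7 genes of the mevalonate route, 3 genes of the steps to lanosterol, 9 genes of the steps from there to cholesterol, 5 genes of SREBP control and 5 genes of uptake, transport, storage and export.

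Cal33 is an established line of human oral squamous cell carcinoma, grown in DMEM with fetal bovine serum, which itself carries cholesterol. The 3 CES2 libraries come from cells that took up a lentivirus made with the plasmid pSin-EF2-CES2-FLAG, which adds a FLAG-tagged copy of the enzyme, a hydrolase that cleaves esters and amides in the endoplasmic reticulum. The 3 Vector libraries come from cells that took up virus made with pSin-EF2-empty. Both kinds of virus were packaged in 293FT cells with pMD2.G and psPAX2, and both kinds of Cal33 cell were kept under 0.5 ug/ml puromycin as stable pools of transduced cells. Whether libraries of the same group stem from separate infections or dishes is not stated in the labels, so p-values measure only the spread between these libraries, which may be technical.

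The CES2 transcript was at 2664, 1929 and 2294 TPM in the CES2 libraries, against 45.6, 41.9 and 44.9 TPM in the Vector libraries, so the targeted gene was high in every library labelled CES2. TPM is transcript abundance corrected for length and scaled to 1000000 per library, so sequencing depth is unknown, a rise in abundant transcripts lowers the share of the others, and no counting interval can be given. All 8 squamous epithelial markers were tested and summed to 3843 to 5276 TPM in CES2 libraries and 3911 to 5222 TPM in Vector libraries. Among them KRT5 averaged 1608 TPM in CES2 and 2020 TPM in Vector, while KRT14 averaged only 1.98 TPM in both groups. Of the other cell types' markers 1 of 6 fibroblast, 2 of 4 endothelial and 1 of 4 leukocyte genes were tested, and each list summed to at most 25.6 TPM in a library. That highest sum, in Vector 2, came almost wholly from the endothelial gene CDH5, which was at 8.25 to 25.3 TPM over all libraries. Blank entries numbered 168, 152 and 158 in CES2 libraries 1 to 3 and 213, 279 and 73 in Vector libraries 1 to 3, and blanks were read as 0. In bulk RNA, fewer cells that make a transcript and less of it per cell cannot be told apart.

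As background, cells build cholesterol from acetyl-CoA through mevalonate, farnesyl diphosphate, squalene and lanosterol, mostly in the endoplasmic reticulum. When sterol in that membrane runs low, the escort protein SCAP carries the transcription factor SREBP2 to the Golgi, where a pair of proteases releases its active part, and when sterol is plentiful INSIG proteins hold the complex back. Released SREBP2 binds sterol elements in the promoters of most enzymes of the pathway, usually beside the factor NF-Y, which binds CCAAT boxes. Squamous epithelium uses cholesterol for the lipid barrier of its outer layers.

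The promoters are shown because the transcripts of many of these genes varied alike from library to library. RefSeq windows (GRCh38.p14, 250 bases before to 50 bases from each start site) were matched for 26 of the 29 genes, with 32 windows in all. FDFT1, SQLE and ACAT2 had no match. A search for the sterol element TCACNCCAC and for the CCAAT box, on both strands and with overlapping matches counted separately, found at least 1 CCAAT box for 18 of 26 genes (69.2%) and at least 2 in a single window for 12 (46.2%). Among all tested genes with a window the shares were 43.4% and 16.4% of 9609. The 16 matched synthesis enzymes held at least 1 box in 13 cases and at least 2 in 10. The sterol element was found for SREBF2 only among the 26, and for 1.49% of tested genes. Only this string was searched, so sterol elements that differ from it or lie outside the windows were missed. Its absence therefore does not show that a promoter lacks a sterol element. The promoter of SREBF2 carries that element 133 bases before the start and a CCAAT box 106 bases before it. HMGCS1, MSMO1 and MVD, with 2, 4 and 3 boxes, were among the genes that varied most between libraries. NSDHL and MVK had the most matches, 5 each, yet their highest library exceeded the lowest by 1.25- and 1.96-fold. IDI1 had 3 matches in the window shown, 2 of which overlap, yet its transcript ran in another order than the rest. LBR, whose transcript varied little, had neither motif in its window, whose start site lies 786 bases from the start of the deposited transcript. Window and measured transcript can differ in this way: for 7 of the 26 genes the nearest RefSeq start site was over 250 bases from the start of the deposited transcript, the farthest being NPC1 at 50884 bases. In the other windows shown here that distance was 3 to 81 bases. Capitals mark the matches, and each sequence runs 5′ to 3′ on the strand of its gene.
SREBF2, chr22:41832855-41833154, plus strand: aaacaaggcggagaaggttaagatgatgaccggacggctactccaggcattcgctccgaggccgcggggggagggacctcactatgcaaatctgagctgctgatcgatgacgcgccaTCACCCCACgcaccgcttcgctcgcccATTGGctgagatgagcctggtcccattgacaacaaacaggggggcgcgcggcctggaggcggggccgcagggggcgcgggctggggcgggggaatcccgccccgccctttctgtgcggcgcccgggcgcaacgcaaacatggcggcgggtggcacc
HMGCS1, chr5:43313363-43313662, minus strand: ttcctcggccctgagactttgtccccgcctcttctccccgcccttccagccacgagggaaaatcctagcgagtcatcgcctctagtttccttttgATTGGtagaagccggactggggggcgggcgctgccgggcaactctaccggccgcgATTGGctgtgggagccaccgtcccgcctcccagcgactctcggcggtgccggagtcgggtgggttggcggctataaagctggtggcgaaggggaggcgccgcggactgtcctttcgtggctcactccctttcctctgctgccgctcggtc
MSMO1, chr4:165327419-165327718, plus strand: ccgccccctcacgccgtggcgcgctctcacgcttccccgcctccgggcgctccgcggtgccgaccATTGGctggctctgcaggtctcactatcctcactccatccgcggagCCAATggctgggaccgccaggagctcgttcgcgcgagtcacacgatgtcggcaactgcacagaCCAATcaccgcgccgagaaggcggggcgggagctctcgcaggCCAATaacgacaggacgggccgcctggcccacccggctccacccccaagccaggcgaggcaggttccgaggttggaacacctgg
MVD, chr16:88663042-88663341, minus strand: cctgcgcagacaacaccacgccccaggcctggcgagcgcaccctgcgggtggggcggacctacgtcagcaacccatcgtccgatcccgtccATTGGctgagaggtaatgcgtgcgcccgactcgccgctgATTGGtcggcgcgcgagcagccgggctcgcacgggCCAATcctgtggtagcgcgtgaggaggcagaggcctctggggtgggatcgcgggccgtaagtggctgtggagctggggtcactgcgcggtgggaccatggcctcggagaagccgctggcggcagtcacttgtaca
IDI1, chr10:1048837-1049136, minus strand: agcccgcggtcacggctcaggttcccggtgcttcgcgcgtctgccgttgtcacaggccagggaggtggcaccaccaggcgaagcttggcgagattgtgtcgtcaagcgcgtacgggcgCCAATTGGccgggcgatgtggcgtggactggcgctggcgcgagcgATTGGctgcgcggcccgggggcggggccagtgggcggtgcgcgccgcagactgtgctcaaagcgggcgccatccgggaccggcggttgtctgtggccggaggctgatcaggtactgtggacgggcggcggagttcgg
LBR, chr1:225428772-225429071, minus strand: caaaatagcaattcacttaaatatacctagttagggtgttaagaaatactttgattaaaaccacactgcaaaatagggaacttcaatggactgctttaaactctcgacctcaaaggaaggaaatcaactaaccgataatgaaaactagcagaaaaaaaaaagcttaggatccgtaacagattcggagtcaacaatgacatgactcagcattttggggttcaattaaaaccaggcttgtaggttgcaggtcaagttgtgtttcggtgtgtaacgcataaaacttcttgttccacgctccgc

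**Figure D1:**
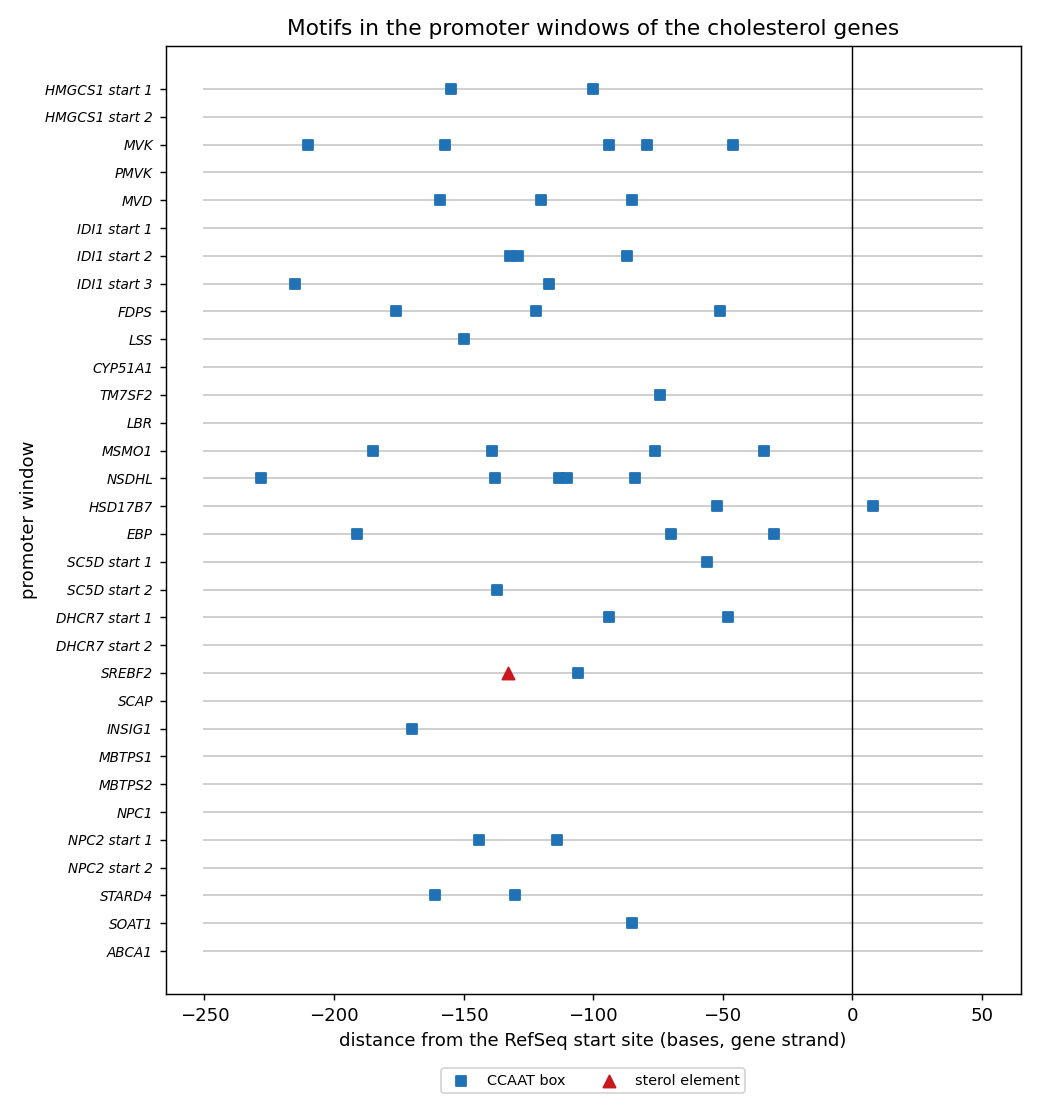
Positions of CCAAT boxes (squares) and of the sterol element (triangle) in the 32 promoter windows of 26 genes, in bases from the RefSeq start site on the strand of the gene, with genes that have several start sites given a line for each. Most boxes lie before the start, and 12 genes carry at least 2 in a window. The sterol element, searched only as TCACNCCAC, appears in the SREBF2 window only.

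The comparison of CES2 with Vector asks whether cells with more carboxylesterase 2 transcript change their cholesterol genes. No gene of the pathway did so by limma at a Benjamini-Hochberg adjusted p of 0.05 over all tested genes: 0 of 28 passed, beside 0.00819% of the 12210 genes tested, which is CES2 itself. At an unadjusted p under 0.05 there were 0 of 28, beside 1.09% of all genes, and limma without the intensity trend also called 0. The smallest adjusted p was 0.9998. In all 28 genes the CES2 and Vector libraries overlapped, where 3.70% of all genes showed groups without overlap, 1.07% with CES2 above and 2.63% with CES2 below. Log2 fold changes ran from -0.25 to 0.42 on the log2(TPM + 1) scale, with standard errors (SE) of 0.18 to 0.60, and 27 of the 28 lay within 1 standard error of 0. The intervals are wide: for HMGCS1 the 95% interval of the log2 fold change reached from -1.45 to 1.28 and for LBR, among the tightest, from -0.50 to 0.31. A 2-fold change in either direction lies inside the interval of HMGCS1, so such a change was not detectable here.

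Log2 fold changes were above 0 for 17 of 28 genes, with a median of 0.050, where 36.3% of all genes were above 0 and their median was -0.057. That count rested on single libraries. Without Vector 2 it was 5, without CES2 2 it was 10, without CES2 1 it was 11, and without Vector 1 it was 22. With each library shifted to the same median over tested genes (median rescaling) it was 20. The median was -0.22 without Vector 2 and 0.22 without Vector 1.

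**Figure D2:**
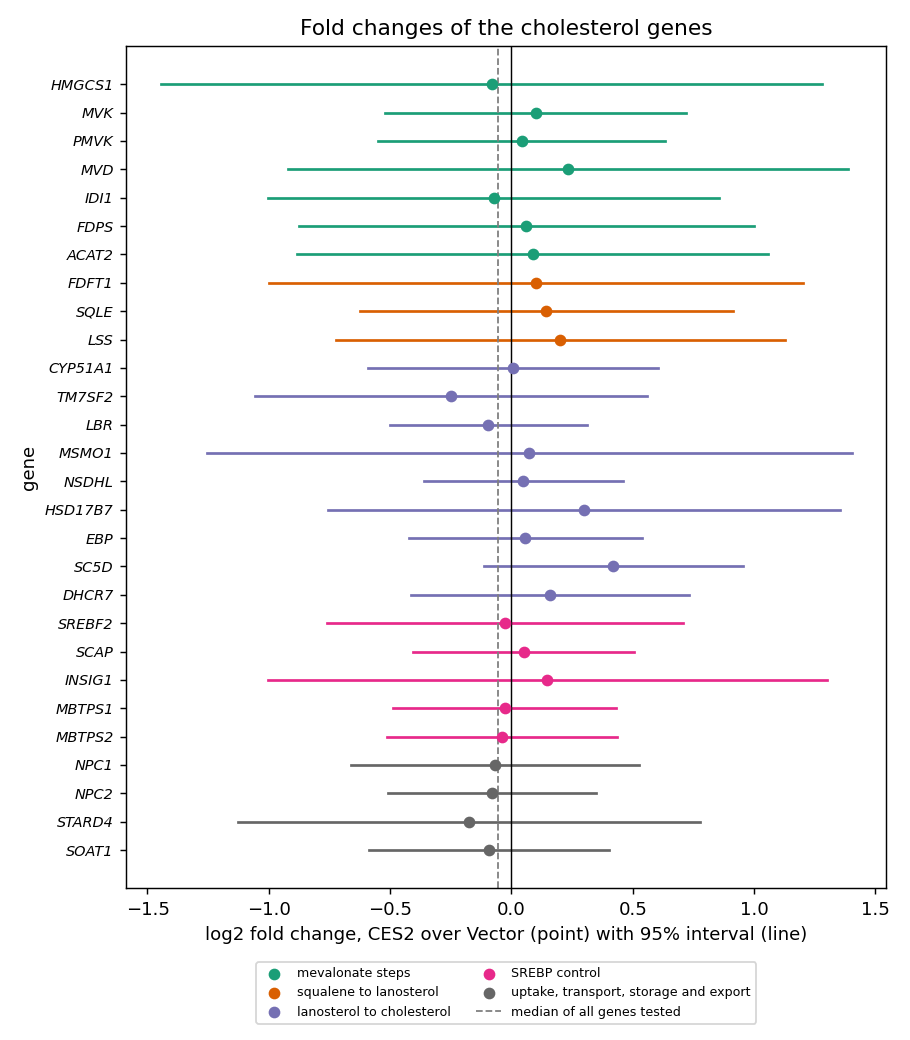
Log2 fold change of CES2 over Vector for the 28 tested genes (points, coloured by role) with the 95% interval from limma (lines), on the log2(TPM + 1) scale, and the median of all tested genes (dashed line at -0.057). Every interval includes 0, and the points lie between -0.25 and 0.42.

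The mevalonate steps turn acetyl-CoA into farnesyl diphosphate, and 5 of their 7 transcripts differed by over 2-fold between the highest and the lowest library. HMGCS1, the synthase that makes HMG-CoA, was at 346, 324 and 108 TPM in CES2 libraries 1 to 3, against 511, 113 and 249 TPM in Vector libraries 1 to 3. CES2 3 and Vector 2 were thus low by a similar margin, and the lowest value of the gene came from a CES2 library and the highest from a Vector library. Its log2 fold change was -0.08 (SE 0.60).

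MVD, the decarboxylase that yields isopentenyl diphosphate, was at 278, 363 and 170 TPM in CES2, against 433, 99.2 and 244 TPM in Vector. The Vector group held both the highest and the lowest library, with a 4.36-fold gap between Vector 1 and Vector 2. The means were 270 ± 96.8 TPM in CES2 and 259 ± 167 TPM in Vector (SD, n = 3 each), and the groups differed by 0.23 log2 units (SE 0.50). FDPS, which joins isoprene units to farnesyl diphosphate, was the most abundant transcript of the pathway, above 98.4% of tested genes. It was at 694, 911 and 399 TPM in CES2, against 1023, 373 and 581 TPM in Vector. The same libraries, CES2 2 and Vector 1, were the highest of their groups for MVD and FDPS.

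Of the other mevalonate genes, ACAT2, the thiolase that starts the route, averaged 111 ± 31.0 TPM in CES2 and 113 ± 57.4 TPM in Vector (SD, n = 3 each). MVK, the kinase of mevalonate, averaged 89.5 ± 5.77 TPM in CES2 and 87.1 ± 29.02 TPM in Vector. PMVK, the next kinase, was lower, at 27.3 ± 7.37 TPM in CES2 and 26.1 ± 4.12 TPM in Vector. For these 3 genes log2 fold changes were between 0.04 and 0.10.

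IDI1, the isomerase of isopentenyl diphosphate, is singled out after its values were seen. It was at 61.3, 47.1 and 136 TPM in CES2, against 84.6, 104 and 52.1 TPM in Vector. CES2 3 was its highest library and CES2 2 its lowest, so the order inside the CES2 group was opposite to that of FDPS and MVD. Its log2 fold change was -0.07 (SE 0.41).

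The steps to lanosterol showed the library order of FDPS in the Vector group. FDFT1, squalene synthase, commits farnesyl diphosphate to sterols and was at 370, 455 and 179 TPM in CES2, against 561, 163 and 266 TPM in Vector. LSS, which closes the sterol rings, was at 123, 145 and 66.2 TPM in CES2, against 137, 52.0 and 108 TPM in Vector. SQLE, squalene epoxidase, a control point of the route, was at 187.5, 165 and 155 TPM in CES2, against 241, 87.6 and 169 TPM in Vector. In all 3 genes Vector 1 exceeded Vector 3, which exceeded Vector 2, and CES2 3 was the lowest CES2 library. Log2 fold changes were 0.10 for FDFT1, 0.14 for SQLE and 0.20 for LSS, with standard errors of 0.48, 0.34 and 0.40.

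From lanosterol to cholesterol the genes differed among themselves. MSMO1, the methylsterol oxidase, had the widest spread of the pathway, at 282, 249 and 122 TPM in CES2, against 510, 97.4 and 147 TPM in Vector. Vector 1 stood 5.24-fold above Vector 2, while the log2 fold change between the groups was 0.07 (SE 0.58). HSD17B7, a ketosteroid reductase that works with MSMO1 in the removal of methyl groups, was at 58.3, 58.9 and 33.3 TPM in CES2, against 73.8, 18.8 and 43.1 TPM in Vector. Its log2 fold change was 0.30 (SE 0.46).

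SC5D, the desaturase that acts late in the route, had the highest log2 fold change of the pathway, 0.42 (SE 0.23). It was at 81.8, 68.7 and 71.0 TPM in CES2, against 43.9, 49.8 and 75.0 TPM in Vector. Vector 3 lay above CES2 2 and CES2 3, so the groups overlapped, and the unadjusted limma p was 0.107 (adjusted p = 0.9998). By exact permutation of its 6 libraries, two-sided, p was 0.3, where 3 against 3 cannot go below 0.1. The other Vector libraries lay below every CES2 library, and the log2 fold change was 0.26 without Vector 1 and 0.64 without Vector 3, neither past the limma threshold. In contrast to most of the pathway, Vector 1 was the lowest library of this gene.

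TM7SF2 and LBR reduce the same double bond of the sterol ring, and LBR also anchors chromatin and lamins at the nuclear envelope. TM7SF2 was at 67.0, 71.4 and 42.1 TPM in CES2, against 99.0, 40.9 and 84.0 TPM in Vector, a log2 fold change of -0.25 (SE 0.35), the lowest of the pathway. It was -0.02 without CES2 3, -0.63 without Vector 2 and 0.00 without Vector 1, so its size rested on single libraries. LBR was at 94.8, 80.6 and 74.1 TPM in CES2, against 88.0, 83.0 and 94.9 TPM in Vector. The highest library of LBR exceeded the lowest 1.28-fold, while that ratio was 2.42 for TM7SF2. For LBR the groups differed by -0.10 log2 units (SE 0.18).

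The remaining enzymes of the route were steadier than MSMO1. CYP51A1, the lanosterol demethylase, averaged 156 ± 28.6 TPM in CES2 and 158 ± 44.9 TPM in Vector (SD, n = 3 each), and the groups differed by 0.01 log2 units. NSDHL, a dehydrogenase in the removal of methyl groups, averaged 76.0 ± 8.13 TPM in CES2 and 73.4 ± 6.97 TPM in Vector, and its libraries differed by at most 1.25-fold. EBP, a sterol isomerase, averaged 151 ± 5.09 TPM in CES2 and 147 ± 34.3 TPM in Vector. DHCR7, which reduces the last double bond on one branch, averaged 223 ± 42.2 TPM in CES2 and 202 ± 60.2 TPM in Vector, a log2 fold change of 0.16 (SE 0.25).

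Genes of SREBP control fell into a pair that varied with the enzymes and 3 that varied little. SREBF2, which encodes SREBP2, was at 262, 316 and 167 TPM in CES2, against 343.5, 166 and 256.5 TPM in Vector. Here too CES2 3 and Vector 2 were the low libraries, within 1 TPM of each other. INSIG1, which retains the SCAP complex and is itself a target of SREBP, was at 150, 138 and 49.4 TPM in CES2, against 164, 53.8 and 84.5 TPM in Vector. Log2 fold changes were -0.03 for SREBF2 (0.03 under median rescaling) and 0.15 for INSIG1, with standard errors of 0.32 and 0.50.

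SCAP, the escort of SREBP, averaged 65.2 ± 7.03 TPM in CES2 and 63.3 ± 11.4 TPM in Vector (SD, n = 3 each). MBTPS1 and MBTPS2, the Golgi proteases that release SREBP, averaged 101 and 21.0 TPM in CES2 and 103 and 21.7 TPM in Vector. The highest library exceeded the lowest by 1.35- to 1.38-fold in these 3 genes. The log2 fold changes of MBTPS1 and MBTPS2 were -0.03 and -0.04, and both turned positive under median rescaling.

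Genes of uptake, transport and storage had log2 fold changes below 0 in 4 of 4 tested cases, beside 7780 of all 12210 genes. The values ran from -0.18 to -0.07, each within 1 standard error of 0, and each sign turned when some single library was left out. No lipoprotein receptor is among these genes. NPC2, the soluble lysosomal protein that hands cholesterol to NPC1, was the most abundant of them, at 183, 222 and 176 TPM in CES2, against 239, 182 and 194 TPM in Vector. NPC1, the lysosomal membrane exporter, averaged 63.5 ± 12.8 TPM in CES2 and 67.4 ± 19.2 TPM in Vector (SD, n = 3 each). In both genes Vector 1 was the highest library of all 6, and the highest library exceeded the lowest 1.36-fold for NPC2 and 1.78-fold for NPC1.

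STARD4, a soluble sterol carrier between membranes, was at 45.8, 35.0 and 19.0 TPM in CES2, against 63.0, 26.7 and 26.4 TPM in Vector. The spread was 3.32-fold over the 6 libraries, nearer to that of the enzymes than to that of the lysosomal pair. Its log2 fold change was -0.18 (SE 0.42). SOAT1, which esterifies cholesterol for storage, was at 23.05, 20.3 and 23.1 TPM in CES2, against 24.0, 19.2 and 28.6 TPM in Vector, a log2 fold change of -0.09 (SE 0.22). ABCA1, the pump that exports cholesterol to lipoproteins, was not tested because it stayed under 1 TPM in every library. It was at 0.313, 0.436 and 0.225 TPM in CES2, against 0.350, 0.254 and 0.643 TPM in Vector, and the groups overlapped.

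**Figure D3:**
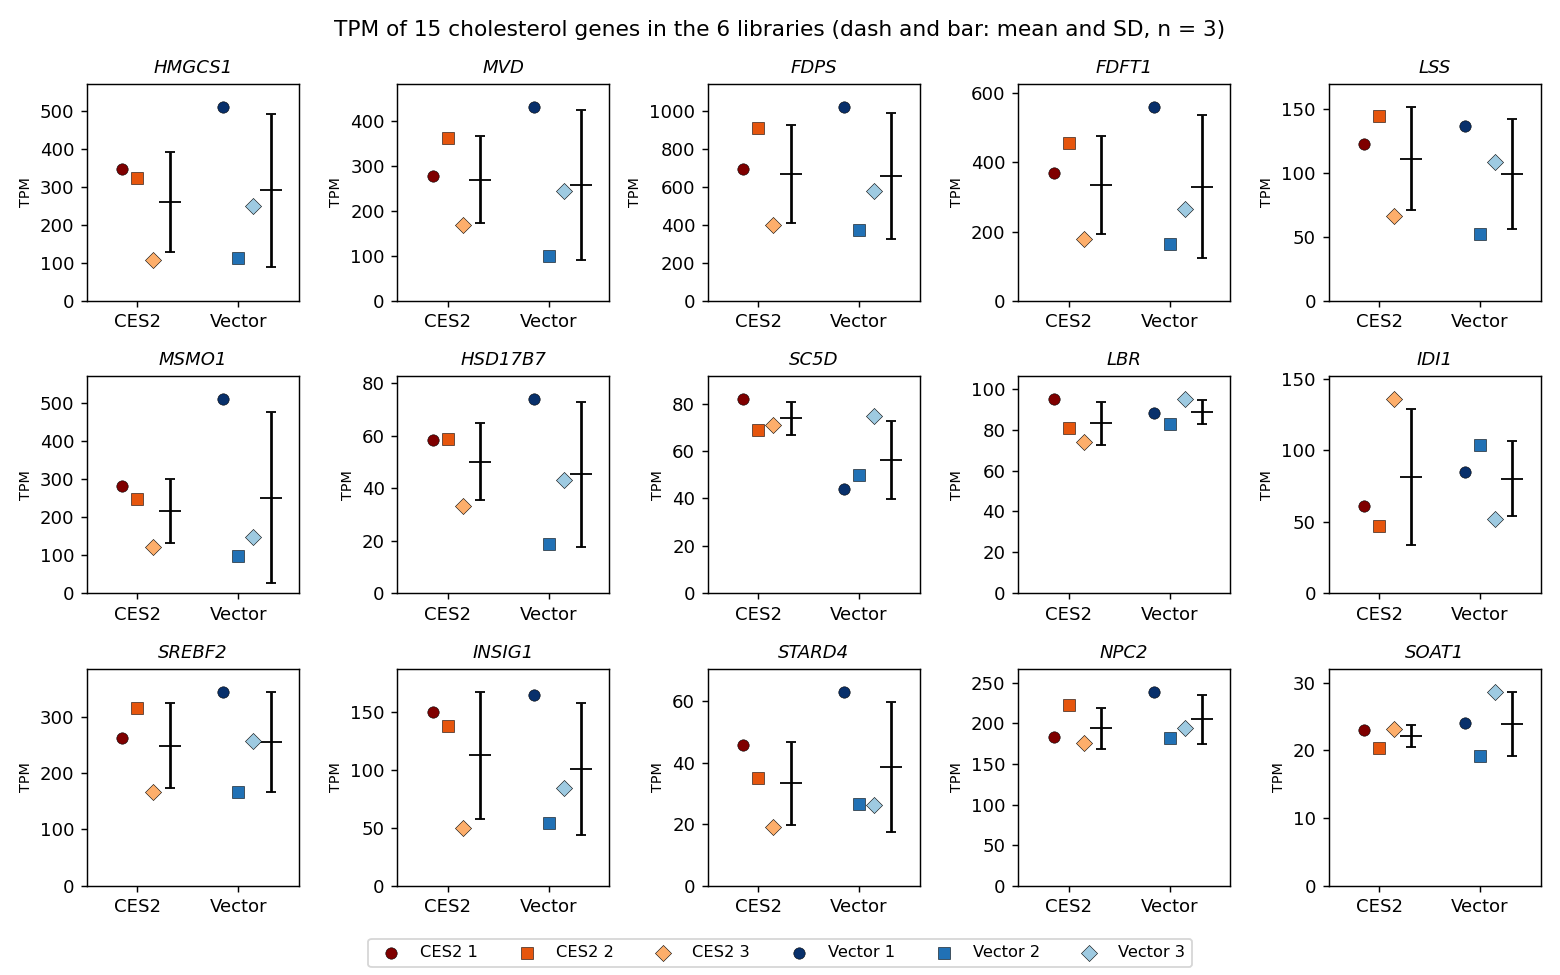
TPM (linear axis from 0) of 15 genes of the pathway in each CES2 library (left, red to orange) and each Vector library (right, blue), with a dash and bar for the mean and SD of 3 libraries. Vector 1 is high and Vector 2 and CES2 3 are low for HMGCS1, FDPS, FDFT1, MSMO1 and SREBF2, while IDI1, SC5D and LBR show other orders, and the groups overlap in every panel.

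The libraries of each group stood in a recurring order for most of these genes. Vector 2 was the lowest Vector library for 23 of 28 genes (82.1%, beside 49.4% of all tested genes), and CES2 3 was the lowest CES2 library for 21 of 28 (75.0%, beside 43.2%). Vector 1 was the highest Vector library for 19 of 28 (67.9%, beside 35.5%). In the CES2 group the top place was shared, with CES2 1 highest for 13 genes and CES2 2 for 12. The order Vector 1 over Vector 3 over Vector 2 held for 17 genes (60.7%, beside 26.5%). These shares are descriptions, since the genes were chosen with earlier results of these data known.

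CES2 2 and Vector 1 were set side by side across the groups. Both lay above both CES2 3 and Vector 2 for 21 of 28 genes (75.0%, beside 37.1% of all tested genes), and they were the top pair of the 6 libraries for 9 genes (32.1%, beside 17.1%). The genes outside the first count were CYP51A1, SOAT1, IDI1, SC5D, SCAP, LBR and NSDHL. The median deviation of the 28 genes from their own mean over all libraries was 0.17, 0.16 and -0.31 log2 units in CES2 libraries 1 to 3 and 0.41, -0.47 and 0.08 in Vector libraries 1 to 3. CES2 1 thus lay about as high as CES2 2, so the first count does not set CES2 2 apart from CES2 1. CES2 3 and Vector 2 were the lowest pair of the 6 libraries for 17 genes (60.7%, beside 25.2%). Over the whole table CES2 2 and Vector 1 were alike. Across all 12210 tested genes, which are not independent, their deviations from the group means had a Pearson correlation of 0.682. For CES2 1 and Vector 1 it was 0.145, and for CES2 3 and Vector 1 it was -0.678. Deviations within a group sum to 0, so these correlations are tied to each other. Without Vector 1 and CES2 2 together, 0 of 28 genes passed, 22 were above 0, and the median log2 fold change was 0.19.

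Summed over the 19 synthesis enzymes, the pathway took up 0.354%, 0.378% and 0.231% of the TPM total in CES2 libraries 1 to 3, against 0.479%, 0.186% and 0.296% in Vector libraries 1 to 3. The CES2 values thus all lay between the extremes of the Vector group. The synthesis enzymes had a median range of 1.45 log2 units over the 6 libraries, SREBP control genes 0.46 and all tested genes 0.78. For the fatty acid and hypoxia genes described below it was 1.02 and 1.85, so the hypoxia genes varied more than the enzymes. Hypoxia genes also differed between these libraries, with median deviations of 0.95, 0.30 and -0.78 log2 units in CES2 and 0.19, -0.11 and -0.38 in Vector, and their part in the pattern was not tested.

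**Figure D4:**
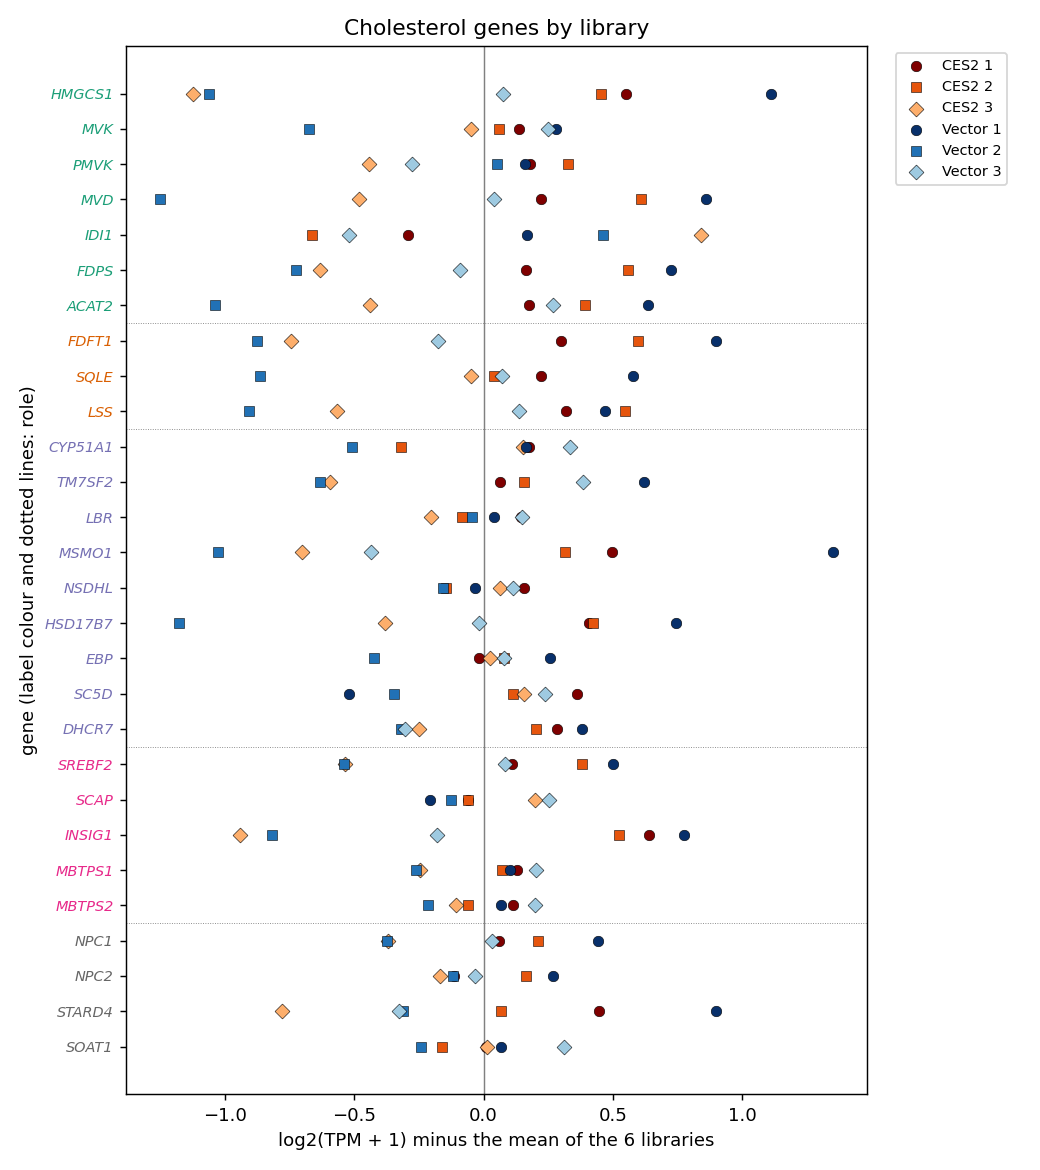
Log2(TPM + 1) of each tested gene minus its mean over the 6 libraries, with genes grouped by role (dotted lines) and a point for each CES2 library (red to orange) and Vector library (blue). Vector 2 and CES2 3 lie left and Vector 1 lies right for most enzymes, SREBF2 and INSIG1, while SCAP, MBTPS1, MBTPS2, LBR and NSDHL lie near 0.

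Genes with CCAAT boxes in the promoter windows shown above had wider spreads between libraries on the median. The 12 tested genes with at least 2 boxes had a median ratio of highest to lowest library of 2.81, the 6 with 1 box had 2.24, and the 7 with none had 1.38. The classes overlapped: genes with at least 2 boxes lay between 1.25 and 5.24, and the genes with none (CYP51A1, LBR, MBTPS1, MBTPS2, NPC1, PMVK and SCAP) between 1.28 and 1.81. Of the genes with at least 2 boxes, NSDHL at 1.25, NPC2 at 1.36, EBP at 1.61 and DHCR7 at 1.63 were no higher than the highest gene with none. For LBR, NPC1 and PMVK, all without a box, the window is among the 7 that lie away from the deposited start, as it is for DHCR7, EBP, MVK and SC5D, which have boxes. Among all tested genes with a window the medians were 1.73 for at least 2 boxes, 1.77 for 1 box and 1.77 for none, so box number did not go with spread there. Box number also went in part with role. Of the 12 genes with at least 2 boxes, 10 are synthesis enzymes, whose median range was 1.45 log2 units. Of the 7 with none, MBTPS1, MBTPS2 and SCAP belong to SREBP control (0.46) and NPC1 to uptake and transport (0.68), while CYP51A1, LBR and PMVK are enzymes. Spread by box number apart from role was not tested. A match is a description of letters and not a bound site, and the split by box number was made after the values were seen and was not tested.

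Fatty acid genes that SREBP factors also control showed a like order of libraries, with median deviations of 0.17, 0.06 and -0.49 log2 units in CES2 and 0.45, -0.44 and 0.14 in Vector. Of the 10 tested, Vector 2 was the lowest Vector library for 9, CES2 3 was the lowest CES2 library for 7, and CES2 2 and Vector 1 both lay above CES2 3 and Vector 2 for 8. FASN, fatty acid synthase, was at 805, 1100 and 543 TPM in CES2, against 1596, 497 and 989 TPM in Vector. SCD, the stearoyl desaturase, was at 1326, 1146 and 399 TPM in CES2, against 1595, 669 and 1262 TPM in Vector. None of the 10 passed by limma (0 at an unadjusted p under 0.05), and 1 log2 fold change was above 0, with a median of -0.09 and values of -0.24 for FASN, -0.38 for SCD, -0.31 for ELOVL6, -0.12 for ELOVL5, -0.11 for ACLY and -0.06 for MID1IP1.

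Hypoxia genes, listed because they were known to vary between these libraries, had an order that differed in part. CES2 2 and Vector 1 both lay above CES2 3 and Vector 2 for 8 of 12 (66.7%, beside 37.1% of all tested genes). This count is thus not particular to cholesterol and fatty acid genes. CES2 1 was the highest and CES2 3 the lowest CES2 library for 12 of 12, Vector 1 was the highest Vector library for 8, and Vector 3 rather than Vector 2 was the lowest for 8. None of the 12 passed by limma (0 at an unadjusted p under 0.05), 9 log2 fold changes were above 0, and the median was 0.16, with 0.54 for ANKRD37, 0.47 for HILPDA, 0.46 for ADM, 0.33 for VEGFA, 0.30 for LDHA and 0.14 for PGK1.

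**Figure D5:**
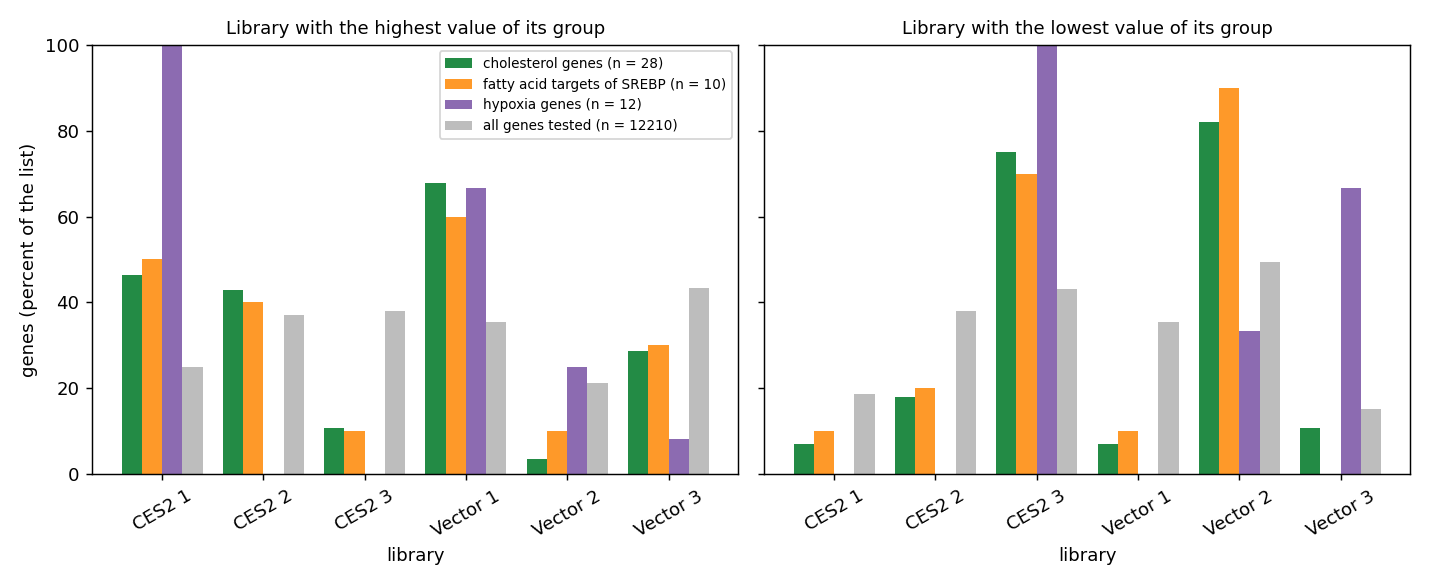
Percent of genes whose highest (left) or lowest (right) value within a group fell in each library, for 28 cholesterol genes, 10 fatty acid genes, 12 hypoxia genes and all 12210 tested genes. Vector 2 holds the lowest Vector value for 82.1% of cholesterol genes and CES2 3 the lowest CES2 value for 75.0%, while hypoxia genes have their lowest Vector value mostly in Vector 3.

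Other genes of sterol homeostasis, from a list of regulators, carriers, lipases, receptors and exporters, were tested for 56 of 57 entries. By limma 0 passed (0 at an unadjusted p under 0.05), 22 log2 fold changes were above 0 and 34 below, and the median was -0.05, close to that of all genes. Groups did not overlap for 2 of 56, both lower in CES2, beside 2.63% of all genes in that direction. These were STARD3NL, a late endosome protein that tethers the organelle to the endoplasmic reticulum, and OSBPL6, an oxysterol-binding protein relative. STARD3NL was at 114, 104 and 103 TPM in CES2, against 136, 119 and 139 TPM in Vector, a log2 fold change of -0.29 (adjusted p = 0.9998, limma). OSBPL6 was near the detection level, at 0.935, 1.27 and 1.33 TPM in CES2, against 1.41, 1.92 and 1.54 TPM in Vector.

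The smallest unadjusted limma p on that list was 0.111, for SQSTM1, an autophagy receptor (log2 fold change 0.31). After STARD3NL came SCARB2, a lysosomal membrane protein (-0.50), OSBPL8 (-0.37) and OSBPL9 (-0.24), lipid carriers at membrane contacts, and LIPA, the lysosomal acid lipase (-0.30), with unadjusted limma p of 0.169 to 0.297. SCARB2 was at 64.9, 54.4 and 27.0 TPM in CES2, against 75.4, 51.1 and 71.3 TPM in Vector, with CES2 3 the lowest library of all. The groups overlapped for each of these 5 genes.

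All 29 genes are protein-coding in GENCODE release 29 and lie on 17 chromosomes. FDPS spans 155308748 to 155320666 on chromosome 1 (plus strand, 9 exons in the listed transcript) and HMGCS1 spans 43289395 to 43313493 on chromosome 5 (minus strand, 11 exons), both as deposited on GRCh38. Exons of MVK, ACAT2, NPC1 and NPC2 overlap a coding gene on the other strand (MMAB for MVK, SOD2 and TCP1 for ACAT2, RMC1 for NPC1, ISCA2 for NPC2), and the handling of strand in counting is not given in the sources used here, so reads of these partners may be mixed. FDPS, CYP51A1 and HSD17B7 have 8, 3 and 2 pseudogenes named after them, which makes their values uncertain where copies share reads. For MVK, TM7SF2, HSD17B7, DHCR7 and NPC1 the listed transcript has under 50% of the length of the longest annotated one. Whether a row's TPM stands for that transcript or for the whole gene is not given in the sources used here, and levels compared between genes rest on it.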

How the data were processed

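RNA of 3 CES2 and 3 Vector libraries was measured by sequencing, after ribosomal RNA removal and strand-specific preparation, per the labels' protocols. The authors deposited 1 table of the whole series, with 6 sample columns that give no unit. TPM was inferred for the deposited columns from the values, as each sums to between 999804 and 999893. Tools are known only from the submitters' processing notes, which list, without roles, edgeR 3.0.8, StringTie 1.3.3 and HISAT2 2.1.0 with the builds hg38 and GRCh38. For filters, annotation and strand handling, nothing is given in the sources used here. Blanks were read as 0, and 20 symbols turned into dates were restored from gene identifiers.

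The test of CES2 over Vector was limma 3.58.1 (R 4.3.3) on log2(TPM + 1), with an intensity trend and group as the only term. Its p-values were adjusted by Benjamini-Hochberg over the 12210 genes that reached 1 TPM in 3 or more libraries. Fold changes understate the change of low genes. Single values used an exact permutation test, whose smallest p is 0.1. Tables and motif searches ran in pandas 2.3.3 under Python 3.11.15, and plots in matplotlib 3.10.9.

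The genes and lists were chosen with earlier results of these data known. Values in every library are given for genes without overlap between groups, for the 4 highest and 4 lowest fold changes, for the most abundant gene of each role and for the 5 widest ranges, and otherwise by means. IDI1, INSIG1, SQLE, FASN, SCD, SCARB2, OSBPL6 and ABCA1 were added after their values were seen. Of other lists up to 6 genes of smallest unadjusted p are named, and OSBPL6 besides, for its groups without overlap. Alternatives left out each library, left out Vector 1 with CES2 2, used the replicate number as a block, rescaled medians, used a pseudocount of 0.1, no filter, or no trend. Count-based tests do not apply to TPM.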

Additional observations from a re-analysis of the deposited data

How the results depend on the processing

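By limma 0 of 28 cholesterol genes passed under each of the 12 alternatives. Over all genes, 10 of them called CES2 alone. Leaving out single libraries gave 1 to 2 genes, and leaving out Vector 1 with CES2 2 gave 2, the added genes being RTEL1-TNFRSF6B without CES2 3 and S100A8 without that pair. The number of cholesterol genes above 0 was 5 to 22 when single libraries were left out, against 17. The median of their log2 fold changes was -0.22 to 0.22, and 0.11 under median rescaling. The same replicate numbers did not pair the libraries, since the deviations of same-numbered CES2 and Vector libraries correlated at 0.145, -0.524 and 0.375 across genes. With the replicate block 1 gene passed, and 0 of the 28. Pseudocount, filter and trend turned no sign. TPM keeps no depth, so what depth limits is unknown.

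Signs of single genes changed as follows, none past the threshold; the cause was not tested. Under median rescaling the log2 fold change was 0.03 for MBTPS1, 0.02 for MBTPS2 and 0.03 for SREBF2. Without Vector 1 and CES2 2 it was 0.21 for HMGCS1, 0.30 for IDI1, 0.01 for MBTPS2, 0.01 for NPC1, -0.02 for PMVK, 0.02 for SREBF2 and 0.15 for STARD4. With single libraries left out, the mevalonate genes spanned -0.63 to 0.46 (HMGCS1), -0.21 to 0.26 (MVK), -0.11 to 0.27 (PMVK), -0.33 to 0.72 (MVD), -0.51 to 0.24 (IDI1), -0.29 to 0.44 (FDPS) and -0.41 to 0.43 (ACAT2). Later enzymes spanned -0.31 to 0.58 (FDFT1), -0.25 to 0.47 (SQLE), -0.20 to 0.53 (LSS), -0.25 to 0.18 (CYP51A1), -0.42 to 0.77 (MSMO1), -0.02 to 0.13 (NSDHL), -0.21 to 0.75 (HSD17B7) and -0.14 to 0.20 (EBP). Control and transport genes spanned -0.31 to 0.23 (SREBF2), -0.04 to 0.19 (SCAP), -0.22 to 0.66 (INSIG1), -0.16 to 0.09 (MBTPS1), -0.15 to 0.05 (MBTPS2), -0.27 to 0.14 (NPC1), -0.18 to 0.04 (NPC2), -0.44 to 0.23 (STARD4) and -0.24 to 0.04 (SOAT1). SC5D, TM7SF2, LBR and DHCR7 changed size but not sign, spanning 0.26 to 0.64 (SC5D), -0.63 to 0.00 (TM7SF2), -0.19 to -0.02 (LBR) and 0.04 to 0.39 (DHCR7).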
